A study of Mus musculus with 8 samples.

Results

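Of 5277 adenosines methylated in 70 to under 90% of control-cell reads, 672 kept at most 0.35 of that N6-methyladenosine (m6A) level after Virma knockdown. The other 4605 also lost much of the mark and kept a median of 48.0%. These 672 sites lie in 626 genes and make up 12.7% of the sites at that control level and 3.48% of the 19302 tested sites with a gene name. A site entered the choice when it was called in all 4 libraries from TBLC, carried a gene name, and had at least 20 A+G reads in each library. Its mean level in the 2 siNC libraries had to be from 0.7 to under 0.9, and its mean level in the 2 siVirma libraries divided by its mean siNC level at most 0.35. That quotient is called the remaining share here. The other 4605 sites in the same range of siNC levels serve as the comparison, together with the 769 of them that kept over 0.6 of their level.

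m6A is placed on mRNA in the nucleus by a writer complex in which METTL3 carries the catalytic activity, METTL14 helps to bind the RNA, and WTAP, VIRMA and further regulators hold the complex together and steer it to its targets. The mark is known to be dense in the last exon and around the stop codon, and it is read by YTH proteins that shorten the life of many transcripts. In GLORI, adenosines without the mark are chemically deaminated and sequenced as G, while m6A is still sequenced as A. The level of a site is the share of its A+G reads that show A.

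Mouse TBLC, a name in use for totipotent blastomere-like cells that the labels do not spell out, were grown in MYCP medium and received either a control siRNA (siNC, 2 libraries) or an siRNA against Virma (siVirma, 2 libraries). EPSC, a pluripotent stem cell type, carried a dCas13b-FTO system, in which an RNA-guided Cas13b without nuclease activity brings the demethylase FTO to a transcript. It was given a control guide (sgCtrl, 2 libraries) or a guide against Gata6 (sgGata6, 2 libraries). The EPSC counts were pooled over the libraries of a group, so each EPSC value has no replicate. Nothing in the labels says whether replicates were separate cultures, so the spread between them may be technical.

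The TBLC lists held 34739 to 66350 sites and 2655963 to 4764955 A+G reads per library, and 20414 sites passed the read minimum in all 4. Virma's own deposited gene coverage stood at 40.3 and 38.2 in the siNC pair of libraries against 24.0 and 22.8 after knockdown, which after centring on the median gene was 0.546-fold. Of 12 fibroblast (feeder) markers, 7 were listed in all 4 libraries, and their summed coverage was 329 and 308 in siNC against 578 and 468 in siVirma. The 9 naive pluripotency markers listed in all 4 summed to 1639 and 1580 against 1867 and 1496. Of the 2-cell stage markers, 6 of 12 were listed in all 4, with sums of 339 and 325 against 364 and 319. For 6 of 10 primitive endoderm markers the sums were 344 and 333 against 409 and 338. In bulk RNA, fewer cells of a type and less RNA per cell cannot be told apart. A gene enters the lists through its called m6A sites, so a marker without one has no value here.

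Median levels over the 672 sites were 0.771 and 0.770 with the control siRNA, against 0.243 and 0.238 with the siRNA to Virma. The median site kept 31.9% of its siNC level, against 48.0% for the other 4605 sites of the range and 44.8% for all named tested sites. Single siNC levels ran from 0.575 to 0.968 in replicate 1 and from 0.560 to 1 in replicate 2, while siVirma levels ran from 0.102 to 0.413 and from 0.102 to 0.368. Every siVirma library was below every siNC library at all 672 sites, where the same held for 94.8% of all tested sites. The edgeR quasi-likelihood test with Benjamini-Hochberg adjustment called all 672 lower, with 2.3e-05 as the largest adjusted p, and it called 91.6% of all tested sites lower. The rule used this contrast, so these counts describe the choice and test nothing.

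**Figure D1:**
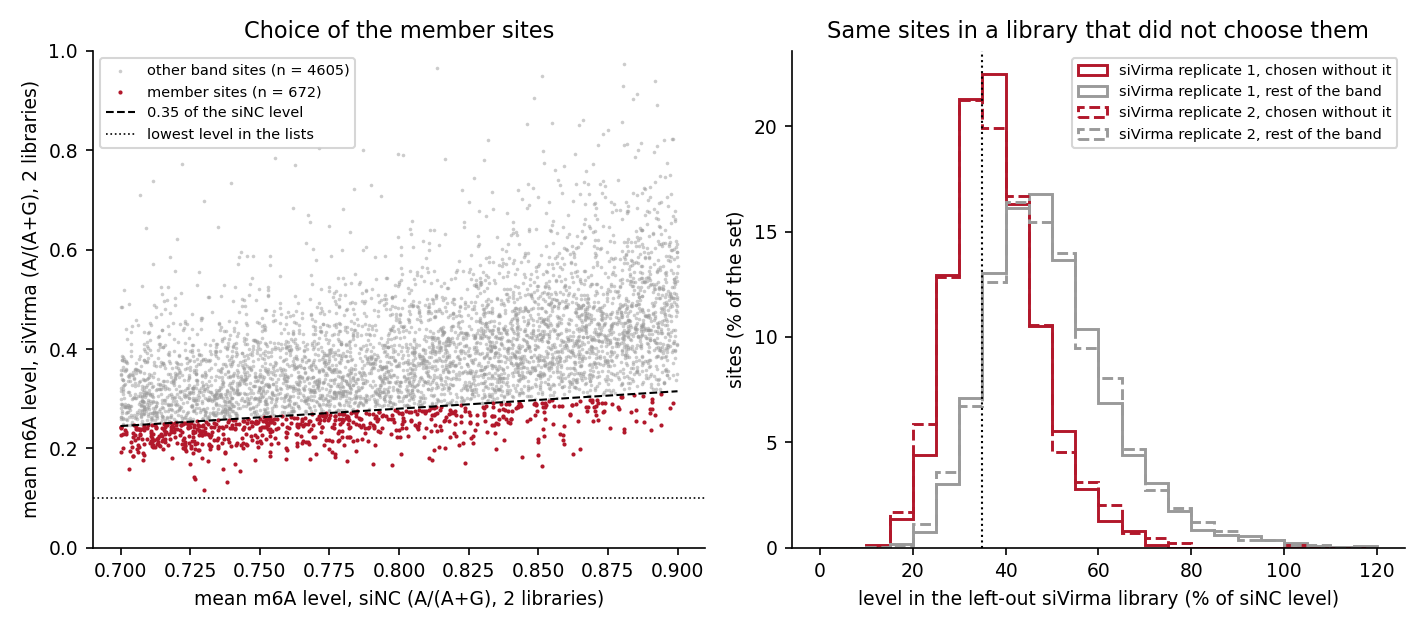
Left, mean m6A level in siVirma against siNC (fraction of A reads, means of 2 libraries) for the 672 chosen sites (red) and the other 4605 sites of the range (grey), with lines at 0.35 of the siNC level and at 0.1, the lowest level a list holds. Right, percent of the siNC level found in a siVirma library when sites were chosen without that library's levels, with a dotted line at 35%. The chosen sites had medians of 37.1% and 37.0%, against 47.9% and 48.1% for the rest. The siNC level in this percent was used in the choice.

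Chosen sites became rarer as the siNC level rose. They were 259 of 1222 sites (21.2%) from 0.70 to 0.75, 201 of 1248 (16.1%) from 0.75 to 0.80, 138 of 1345 (10.3%) from 0.80 to 0.85, and 74 of 1462 (5.06%) from 0.85 to 0.90. The lists hold no level under 0.1 and no site with fewer than 5 A reads, and a site absent from a siVirma list could not be chosen. Of 5658 named sites in the siNC range with 20 reads in both siNC libraries, 185 were listed in 1 siVirma library and 28 in neither, and another 168 were listed in both with under 20 reads in 1 of them.

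The read depth at the chosen sites was moderate. Median A+G reads were 46 and 43 in siNC and 66 and 52 in siVirma, with 246 sites reaching 50 reads in every library and 84 reaching 100. The chosen share of the range changed little with depth: 12.8% at 20 to 30 reads in the shallowest library, 13.7% at 30 to 50, 12.3% at 50 to 100, and 11.3% at 100 or more. Replicates of siVirma differed by a median of 0.0485 in level at these sites, and replicates of siNC by 0.0558.

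Because each library helped to choose the sites, the rule was also applied to 3 libraries and the level read in the fourth. Without siVirma replicate 1, 864 sites were chosen, 526 of them also among the 672, and their median level in that replicate was 0.291, against 0.388 for the rest of the range. Without siVirma replicate 2, 834 sites were chosen (493 shared), with a median of 0.286 in that replicate against 0.388. In the left-out siVirma library 347 of the chosen sites were at or under 0.35, which was 40.2% for replicate 1 and 41.6% for replicate 2. Among the remaining sites it was 11.04% and 11.6%. So in a library whose levels did not choose them the sites were lower than others of the range. They kept 37.1% and 37.0% of their level there, while the median share in the siVirma library that chose them was 0.305 and 0.309. Each of these values divides by the siNC level that helped to choose the sites. The 37.1% and 37.0% are therefore not free of the choice and may read low. Leaving out siNC replicate 1 or 2 gave chosen sites with medians of 0.723 and 0.720 in the left-out library, under the 0.767 and 0.765 in the siNC library that chose them. With all 4 libraries in the rule, 347 of the 672 were at or under 0.35 in both siVirma replicates taken singly.

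Among well covered sites with a low remaining share was 1 in Exoc6b, a subunit of the exocyst that tethers secretory vesicles (chromosome 6, position 84596209, - strand; mm39 throughout). Its level fell from 0.733 and 0.753 to 0.188 and 0.119, from 84 to 101 reads per library. The site kept 20.7% of its siNC level, and the groups were far apart relative to the gap between replicates.

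In Mrpl43, a protein of the mitochondrial ribosome's large subunit, the site at position 44994120 of chromosome 19 had 0.753 and 0.743 in siNC and 0.225 and 0.128 in siVirma. A site in Dynll1, a light chain of dynein, had 0.753 and 0.787 against 0.194 and 0.183 (chromosome 5, position 115436708). Wtap, itself a subunit of the writer complex, carried a site 34 nt from the last called site of its gene (chromosome 17, position 13186423) with 0.862 and 0.785 in siNC and 0.245 and 0.176 in siVirma. The Wtap site kept 25.6%. By the same rule of lowest share among sites with 50 reads in each library, the list went on with Zc3h11a, a zinc finger protein linked to mRNA export, Ess2, Ric8a, a chaperone of G protein alpha subunits, Nxn, a thioredoxin family redox protein, and Cemip2, a cell surface protein of hyaluronan turnover. Those 5 sites kept between 25.5% and 26.5%, with siNC levels from 0.678 to 0.806 and siVirma levels from 0.147 to 0.250.

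**Figure D2:**
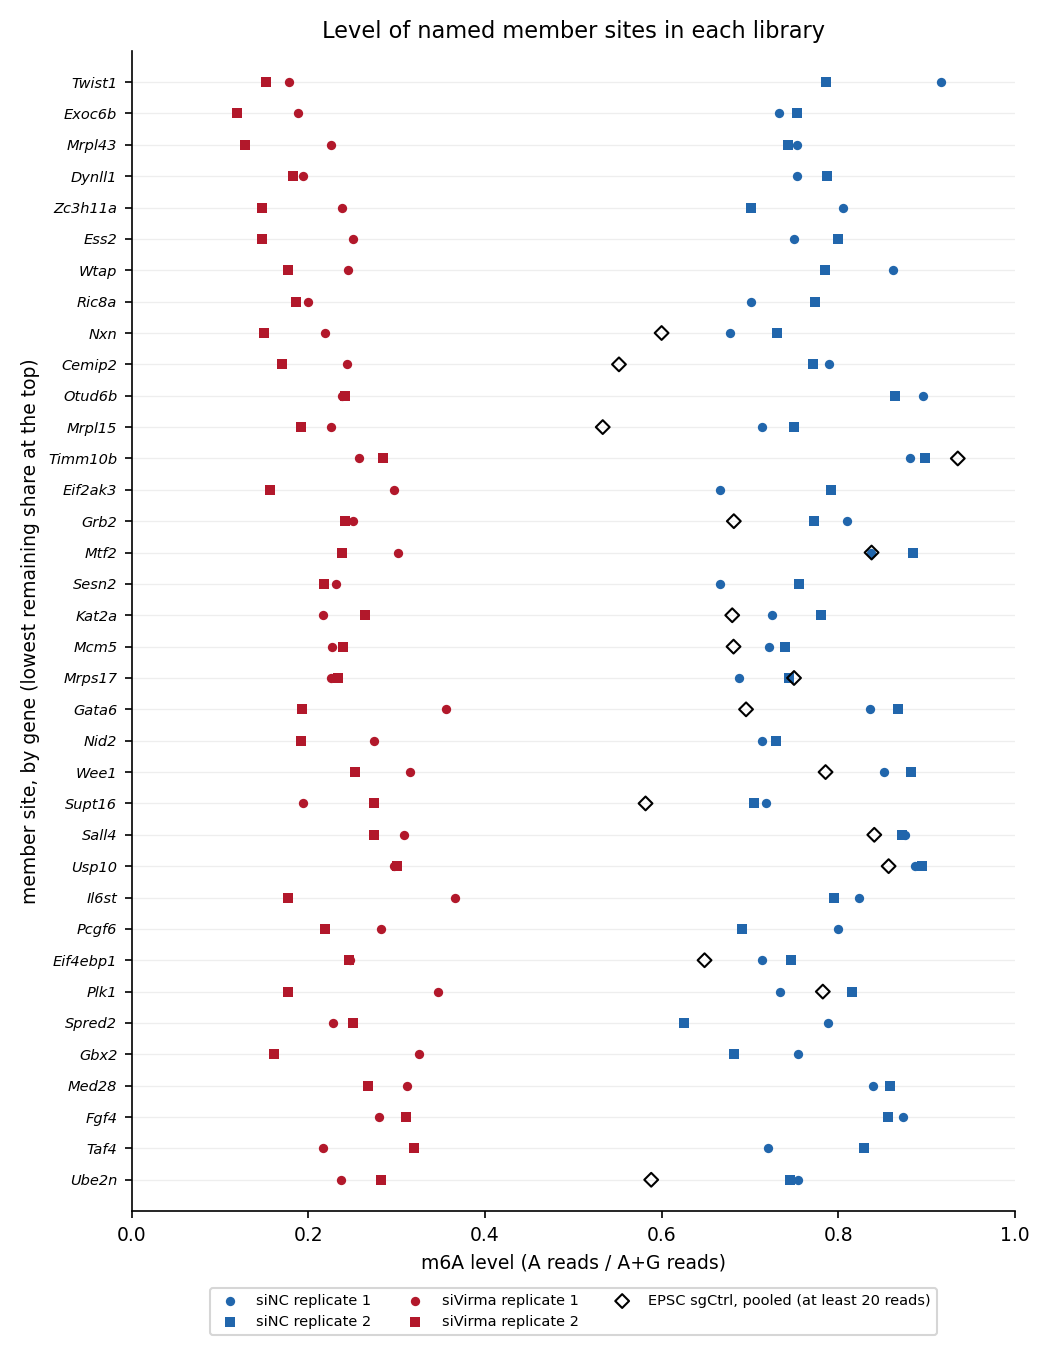
m6A level (fraction of A reads) at named sites in each TBLC library (blue siNC, red siVirma; circles replicate 1, squares replicate 2) and in pooled EPSC sgCtrl (open diamonds, where at least 20 reads were present), 1 row per site. In every row both siVirma points lie left of both siNC points, from Twist1 at 19.3% of its siNC level to Ube2n at 34.6%. The EPSC diamonds lie nearer to the siNC points. The siVirma points are low by the rule, so nothing is read from either order.

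Just inside the threshold, among sites with at least 100 reads in each library, lay Tufm at position 126089673 of chromosome 7 (34.9% kept), Srp72 (34.8%) and Tnrc6a (34.8%). Just outside lay Tceal8 and the pseudogene-named Amd-ps7 (35.01% and 35.1%) and a further Tufm site, at position 126089832 (35.2%). Tufm encodes the mitochondrial translation elongation factor Tu. Its 2 called sites lie 159 nt apart on the + strand with levels of 0.784 and 0.754 in siNC at the chosen one and 0.670 and 0.737 at the other. Their siVirma levels were 0.248 and 0.289, and 0.227 and 0.268, so sites that differed little stood on either side of the threshold.

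Most genes held a single chosen site. The count was 584 genes with 1, 38 with 2 and 4 with 3 (Exoc6b, Ngfr, Thbs1 and Zc3h11a). In 114 of the 626 genes no other site was tested. In 298 genes another site in the same siNC range was tested and not chosen, and in 328 every site of the range was chosen. Only 14 of these 328 genes had more than 1 chosen site. In the others the chosen site was the only one of the range. The other tested sites of these genes, 2334 in all, kept a median of 44.0%, near the 45.6% in genes with no chosen site. Among their 583 other sites in the same siNC range the median was 46.6%, against 48.2%. Both medians leave out the chosen sites, so every site of the range in them is above 0.35 by the rule, and nothing is read from their closeness.

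Thbs1, which encodes the matrix glycoprotein thrombospondin 1, gave the deepest example of several chosen sites in 1 gene. Its site at position 117956803 of chromosome 2 had 402 to 586 reads per library and levels of 0.763 and 0.75 in siNC and 0.214 and 0.206 in siVirma. At position 117956161, levels were 0.75 and 0.711 against 0.252 and 0.254. The third lay far upstream, at position 117943892, with 0.745 and 0.712 against 0.162 and 0.232. The 3 sites span 12911 nt of the gene and kept 27.1% to 34.6%, and in each the groups did not overlap. Of the 6 tested Thbs1 sites, 5 were in the siNC range.

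In Zc3h11a, the sites at positions 133548973 and 133549003 of chromosome 1 are 30 nt apart, and the third, at 133581929, lies 32956 nt from the farther of them. They kept 25.5% to 33.3%. The 3 sites in Exoc6b span 312 nt and kept 20.7% to 33.3%. In Ngfr, which encodes the low-affinity neurotrophin receptor, 3 sites span 912 nt and kept 25.7% to 34.97%, with as few as 28 reads. Over all 42 genes with several chosen sites, the closest pair lay a median of 391.5 nt apart, within 10 nt in 2 genes and over 500 nt apart in 17. In 14 of the 42 genes every site of the siNC range was chosen.

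The chosen sites lay in genes with fewer called sites, and nearer to the 3′-most of them. Counting sites called in both siNC libraries, the median gene of a chosen site had 8 sites, against 11 for the rest of the range and 13 for sites that kept over 0.6. The distance to the 3′-most called site of the gene, taken along the genome and so with introns included, had a median of 427.5 nt against 878 and 1488 nt. In genes with at least 2 called sites, 104 chosen sites (16.0%) were the 3′-most, against 9.09% of the rest and 6.17% of those that kept over 0.6. For the 5′-most site the shares were 15.3%, 11.8% and 10.5%. Sites of 1 gene share its transcript and are no replicates, so these differences are given without a test. Which exon, intron or UTR holds a site is not stated, since no annotation of mm39 was used here.

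Over the whole range of remaining shares these quantities changed gradually. Sites at or under 0.30 of their level had a median of 380.5 nt to the 3′-most site, those from 0.30 to 0.35 had 466 nt, those from 0.45 to 0.50 had 967 nt, and those from 0.70 to 0.80 had 2047 nt, while the 105 sites above 0.80 had 1029 nt. Sites per gene went from 7 at or under 0.30 to 15 from 0.70 to 0.80, and stood at 11 above that. The chosen sites are the low end of this gradient, and no break was seen at 0.35.

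**Figure D3:**
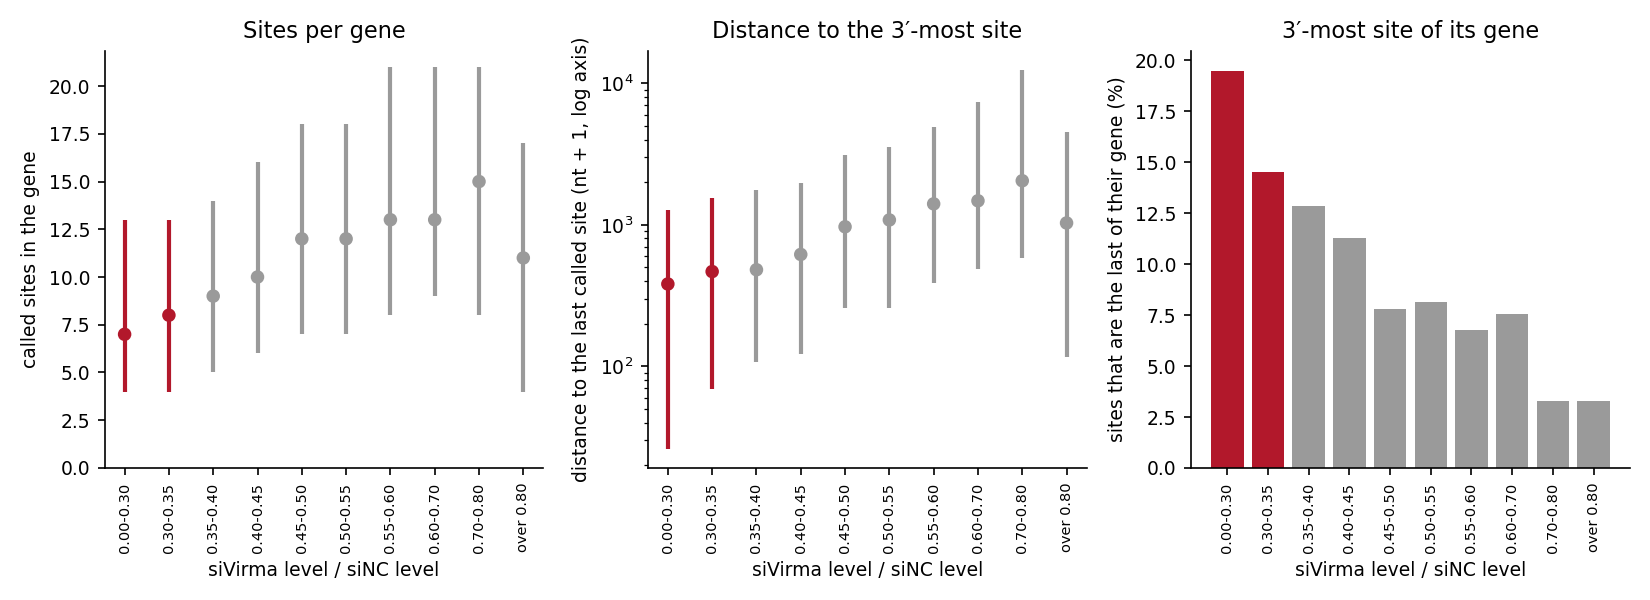
Median and quartiles of called sites per gene (left) and of the distance in nt to the 3′-most called site (middle, log axis), and percent of sites that are the 3′-most of a gene with at least 2 sites (right), by remaining share; red marks the chosen sites. The distance rises from 380.5 nt at or under 0.30 to 2047 nt from 0.70 to 0.80, and the 3′-most share falls from 19.5% to 3.27%. Neither is held to genes with like numbers of sites.

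The same order held at each siNC level. From 0.70 to 0.75 the chosen sites had 542 nt to the 3′-most site against 696 nt for the rest, from 0.75 to 0.80 it was 424 against 916 nt, from 0.80 to 0.85 348 against 1036 nt, and from 0.85 to 0.90 338 against 872 nt. At 100 or more reads in every library it was 291 against 573 nt. Held to genes with like numbers of sites, the distance was 64.5 against 93 nt with 2 to 4 sites, 849.5 against 1253 nt with 10 to 19, and 1865 against 2801 nt with 20 or more, but 498 against 460 nt with 5 to 9. The distance in genes with 5 to 9 called sites was thus not shorter at chosen sites. Held in the same way, the 3′-most share was 38.75% at chosen sites against 32.3% with 2 to 4 sites. It was 11.1% against 9.73% with 5 to 9, 7.28% against 5.03% with 10 to 19, and 4.62% against 1.72% with 20 or more. By number of called sites, the chosen share of the range was 18.3% in genes with 1, 21.8% with 2 to 4, 15.1% with 5 to 9, 10.4% with 10 to 19, and 6.53% with 20 or more.

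Spacing to the nearest called site on the same strand was wider at chosen sites, with a median of 57 nt and quartiles of 26 and 140 nt, against 45 nt (21 and 97) for the rest. Another site lay within 50 nt of 45.4% of chosen sites and 54.3% of the rest, and within 10 nt of 70 chosen sites (10.4%) and 11.9% of the rest. No other site lay within 500 nt of 58 chosen sites (8.63%), against 5.21%. With 50 reads in every library the medians were 49.5 nt against 40 nt.

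At the close end, chosen sites in Mtx1, a subunit of the mitochondrial outer membrane's import and sorting machinery, and in Pagr1a, a partner of histone methyltransferases, had another called site 4 nt away. Mtx1 (chromosome 3, position 89116494) had 0.693 and 0.790 in siNC and 0.207 and 0.215 in siVirma. In Polr3g, an RNA polymerase III subunit, and in the predicted gene Gm5898 the neighbour was 5 nt away. Far from any other site of their gene were those in Slc7a5, a large neutral amino acid transporter (24481 nt), Lrrc42 (13750 nt), Zc3h11a at position 133581929 (7189 nt) and Ankzf1 (5579 nt). Slc7a5 had 0.804 and 0.843 in siNC and 0.286 and 0.278 in siVirma.

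Tested neighbours of chosen sites had lower median remaining shares than neighbours of the rest. Tested sites within 50 nt kept a median of 39.2% over 177 pairs, against 45.9% over 1693 pairs around the rest and 50.6% over 288 pairs around sites that kept over 0.6. Within 500 nt it was 40.7%, 47.0% and 52.7%. Reads of neighbouring sites can be the same reads, so these pairs are not independent measurements. Some neighbours were themselves chosen by the rule. Within 50 nt this was so in 10 of 58 pairs in the siNC range (17.2%), against 48 of 440 (10.9%) around the rest. Median siNC levels of the neighbours within 50 nt also differed, at 0.694 and 0.619. Nothing is therefore read from these medians.

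Grouped by role, chosen sites were spread over many classes, and 12.7% of the sites in the siNC range is the share to read each class against. The chosen share itself fell with the siNC level, from 21.2% at 0.70 to 0.75 to 5.06% at 0.85 to 0.90. Median siNC levels of the classes ran from 0.732 (fibroblast markers) to 0.844 (Pol II transcription and Mediator). Class shares were not adjusted for this. In the m6A writer complex 1 of 10 sites of the range was chosen (Wtap), and among m6A readers and erasers 0 of 13. Of 34 sites in splicing and RNA processing factors and of 7 in the 2-cell stage program, 0 were chosen. In Polycomb and chromatin regulators 13 of 145 sites (8.97%) were chosen, in Pol II transcription and Mediator genes 5 of 60, and in the p53 pathway and apoptosis 1 of 35 (Sesn2, a stress-induced regulator of mTORC1). Translation factors had 2 of 20 (Eif4ebp1, a repressor of cap-dependent translation, and the kinase Eif2ak3). Fibroblast (feeder) markers had 1 of 4, in the transcription factor Twist1, which is not among the 12 markers used for coverage above. The list used here has 20 genes. For naive pluripotency it has 31, for primitive endoderm 24 and for the 2-cell stage 19. The marker sets used for coverage were shorter, so the 2 do not cover the same genes. The lists were drawn up with results of these data known and no enrichment was tested.

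Cell cycle genes had 8 of 23 sites chosen (34.8%), in Anapc1, Ccnd1, Cdc6, Mcm5, Plk1, Skp2 and, at 2 sites, Wee1. Mcm5, a subunit of the replicative helicase, was the deepest, with 495 to 675 reads, and had 0.722 and 0.739 in siNC against 0.227 and 0.239 in siVirma (chromosome 8, position 75854130). Plk1, a mitotic kinase, had 1 called site in its gene, with 0.734 and 0.816 against 0.347 and 0.176. From siVirma replicate 1 alone it kept 44.8%. Wee1, a kinase that holds back entry into mitosis, had 0.852 and 0.882 against 0.315 and 0.252 at position 109741726 of chromosome 7. Its other chosen site, 55 nt away, rested on 21 to 40 reads. All 23 cell cycle sites of the range together kept a median of 38.0%. Their median siNC level was 0.754, near the low end of the range, where the chosen share of all sites was higher.

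Genes of mitochondrial import and the mitochondrial ribosome had 12 of 43 sites chosen (27.9%), in 8 genes. The 43 sites kept a median of 38.9%, at a median siNC level of 0.808. Timm10b, a chaperone of the inner membrane import pathway, stood at 0.881 and 0.899 in siNC and 0.257 and 0.285 in siVirma, at the 3′-most of its 2 called sites (chromosome 7, position 105290460). Mrpl15 had 0.714 and 0.75 against 0.226 and 0.191 with at least 220 reads. Mrps17 had 0.688 and 0.744 against 0.225 and 0.234. Timm44, a part of the import motor chosen for mention after its values were seen, had a site at 0.8 and 0.676 against 0.102 and 0.163, which kept 18.0% but had as few as 34 reads. Mrpl43, Mrpl46, Mrps23 and Timm44 each held 2 chosen sites, so the 12 sites are not 12 separate transcripts.

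In ubiquitin conjugation and removal, 14 of 72 sites (19.4%) were chosen, each in its own gene. The 72 sites had a median siNC level of 0.820. Otud6b, a deubiquitinase, had 0.897 and 0.865 in siNC and 0.238 and 0.241 in siVirma at its 3′-most called site (chromosome 4, position 14810193). Usp10, a deubiquitinase that acts on p53, had 0.887 and 0.895 against 0.297 and 0.3. Ube2n, a conjugating enzyme for K63-linked chains, had 0.755 and 0.745 against 0.237 and 0.282. Both deubiquitinase sites were near the upper edge of the siNC range and their replicates differed little.

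Among pluripotency and lineage genes, 5 of 54 naive pluripotency sites were chosen (Gbx2, Il6st, Rif1 and, at 2 sites, Sall4) and 4 of 11 primitive endoderm sites (Gata6, Nid2 and the same Sall4 sites). Gata6 encodes the transcription factor that drives primitive endoderm. Its chosen site, 10 nt from the 3′-most called site, had 0.836 and 0.868 in siNC against 0.356 and 0.192 in siVirma with 52 to 61 reads, so the siVirma replicates differed by more than those of most sites named here. Sall4, a zinc finger factor of pluripotent cells, had 0.876 and 0.872 against 0.309 and 0.274 at its deeper site (chromosome 2, position 168591525). FGF-ERK signalling had 4 of 44 sites chosen, in Fgf4, Grb2, Spred2 and Spry1. Fgf4, the growth factor made by pluripotent cells, had 0.874 and 0.856 against 0.280 and 0.310, and Grb2, the adaptor that links receptors to Ras, had 0.810 and 0.772 against 0.250 and 0.242.

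By the start of the gene symbol, counted after the data were seen for starts with at least 20 sites in the range, the chosen share was 6 of 21 for Mrpl, 6 of 21 for Ube, 8 of 31 for Fam, 5 of 22 for Rab and 11 of 50 for Tmem. At the other end stood 11 of 161 for Zfp and 0 of 24 for Kdm. Predicted genes named Gm had 18 of 154; where such a gene has a near-identical copy, the counting of its reads is uncertain. Chromosome 11 held the most chosen sites, 73 of its 460 sites of the range (15.9%), and 51.8% of all chosen sites were on the + strand.

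Coverage of the genes that hold chosen sites was slightly higher in siVirma. Gene coverage, the authors' value per gene and library, had a median of 43.3 and 41.8 in siNC and 55.8 and 46.5 in siVirma over the 626 genes. Over the 6787 genes listed in all 4 libraries, coverage was shifted by 0.13 on the log2 scale toward siVirma, and that shift was removed. The centred change of the 626 genes then had a median of 0.07 on the log2 scale (1.05-fold), with quartiles of -0.03 and 0.20, against 0.03 (1.02-fold) for genes with other sites of the range and 0.01 for all genes with a tested site. Genes can hold sites of more than 1 of these kinds.

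After centring, 325 of the 626 genes (51.9%) had both siVirma libraries above both siNC libraries, where 32.9% of all 6787 did, and 129 (20.6%) had both below, where 32.7% of all did. The change comes from the contrast that chose the sites, so nothing is read from these counts. The A+G reads at the site itself, centred on all tested sites, had a median change of 0.12 on the log2 scale (1.09-fold) at chosen sites, 0.02 at the rest and -0.07 at sites that kept over 0.6. The 7 feeder markers were also higher in siVirma, with a median change of 0.49 on the centred log2 scale, and their part in these changes was not tested. The authors' conversion rate per gene had medians of 97.9% in both siNC libraries for chosen sites against 97.6% for the rest, and of 98.8% against 98.5% in both siVirma libraries.

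**Figure D4:**
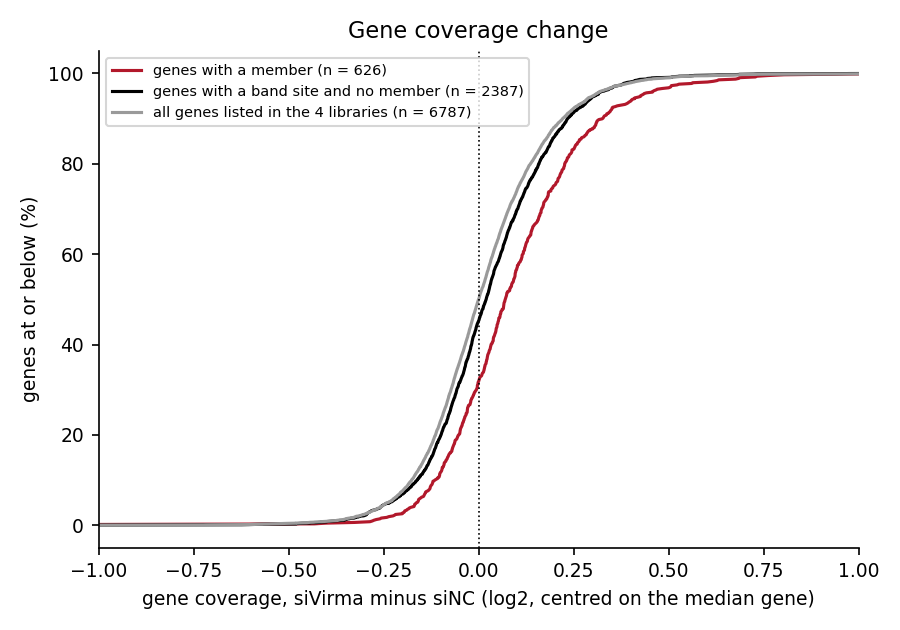
Cumulative percent of genes by centred log2 change of gene coverage, siVirma minus siNC, for the 626 genes with a chosen site, the 2387 genes with a site of the range and none chosen, and all 6787 genes listed in the 4 TBLC libraries. The line of the 626 genes lies to the right, with a median of 0.07, and 68.2% of these genes are above the centre.

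Single genes moved much further than the median. Sp5, a transcription factor of the Wnt pathway, had coverage of 39.2 and 37.8 in siNC and 107 and 82.9 in siVirma, 2.24-fold after centring. Wtap had 45.03 and 49.3 against 107 and 93.6 (1.94-fold). For Mrpl43 it was 88.7 and 86.7 against 184 and 152 (1.75-fold), and for Mmp2, a matrix metalloproteinase of stromal cells, 37.1 and 34.3 against 73.2 and 59.5 (1.70-fold). In these 4 genes the libraries of the groups did not overlap, and the chosen site kept 23.6% to 29.8% of its level.

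The opposite change was seen in Ptgs2, the inducible cyclooxygenase, with 95.6 and 90.3 in siNC and 49.7 and 43.9 in siVirma (0.46-fold). Thbs1 had 183 and 168 against 156 and 129 (0.741-fold), Angptl2, a secreted angiopoietin-like protein, 60.8 and 58.9 against 54.0 and 45.3 (0.757-fold), and Tex19.1, a germline and placental gene, 116 and 111 against 112 and 87.5 (0.798-fold). The chosen Ptgs2 site had 0.779 and 0.756 in siNC and 0.182 and 0.246 in siVirma. Mmp2, Thbs1 and Ptgs2 are also made by fibroblasts.

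In EPSC, 298 of the 672 sites were listed (44.3%, Wilson 95% interval 40.6 to 48.1%), near the 43.4% of the rest of the range. Listing followed read depth in TBLC. With 20 to 30 reads in the shallowest TBLC library, 16.9% of chosen sites and 15.1% of the rest were listed. With 100 or more it was 89.3% and 90.4%. With at least 20 sgCtrl reads, 123 sites had a median level of 0.667, with quartiles of 0.551 and 0.755. The median was 0.739 for 893 other sites of the range and 0.8 for 110 sites that kept over 0.6. In the shallowest TBLC library, 4 of the 123 sites had 20 to 30 reads and 60 had 100 or more, so they stand for the deeper chosen sites. Of the 123 sites, 96 (78.0%) were below their siNC level, where 75.3% of the rest and 74.2% of all named sites with 20 sgCtrl reads were. Above their siVirma level were 122 of the 123 and 875 of the 893. An sgCtrl level under 0.5 was found at 17 (13.8%), against 3.58% of the rest. Summed over the 123 sites, 2981 of 4580 reads were A, a level of 0.651 (Wilson 95% interval 0.637 to 0.665). The rest had 0.780 (0.777 to 0.784). Such sums weight sites by depth. The 110 sites that kept over 0.6 gave 22129 of the 56202 reads of the rest, at a level of 0.860. The intervals cover counting error only.

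The median siNC level was 0.761 at the 123 sites and 0.815 at the 893. The rule used that level: sites chosen without siNC replicate 1 or 2 had 0.723 and 0.720 in the left-out library against 0.767 and 0.765 in the one used, while the rest had 0.815 and 0.817 against 0.812 and 0.810. Nothing is therefore read from a comparison of EPSC with siNC between chosen sites and the rest, by difference or by level. The difference of sgCtrl minus siNC at the same site had a median of -0.104 for chosen sites, -0.074 for the rest and -0.042 for sites that kept over 0.6. In sgGata6, with 203 chosen sites at a median of 0.682, the same difference was -0.088 against -0.082 for the rest. At siNC levels from 0.70 to 0.75, chosen sites had an sgCtrl median of 0.6 (54 sites) against 0.667 (172), and from 0.75 to 0.80 0.687 (38) against 0.708 (206). From 0.80 to 0.85 it was 0.75 (21) against 0.734 (237), and from 0.85 to 0.90 the values were 0.812 (10) against 0.808 (278). The EPSC table is another cell type in pooled libraries, so no test over samples was possible.

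**Figure D5:**
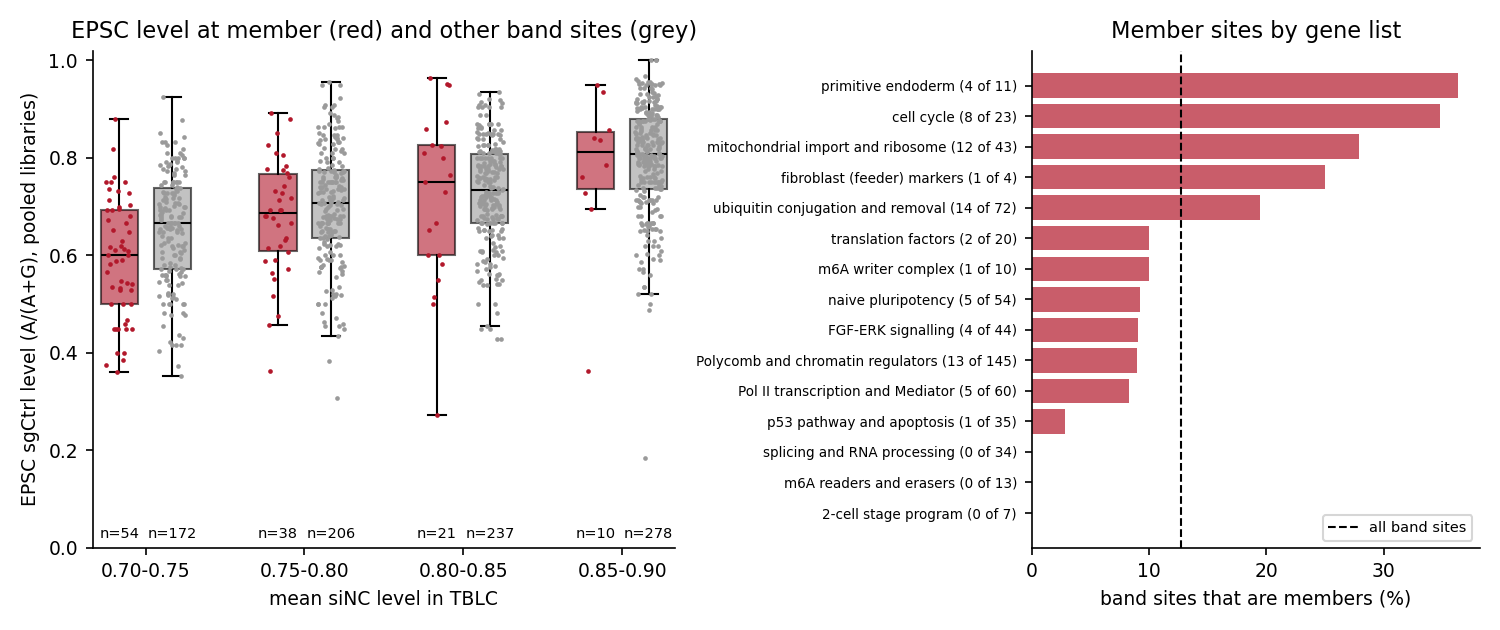
Left, m6A level in pooled EPSC sgCtrl (fraction of A reads, sites with at least 20 reads) at chosen sites (red) and other sites (grey) by mean siNC level, with 1 point per site, boxes at the quartiles with the median line, and whiskers to the farthest point within 1.5 box lengths; medians are 0.6 against 0.667 in the lowest band and 0.812 against 0.808 in the highest. Right, percent of the sites of the siNC range that were chosen, by gene list, from 4 of 11 in the primitive endoderm list to 0 of 34 in the splicing list, with a dashed line at 12.7%.

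Among chosen sites with at least 50 sgCtrl reads, the lowest EPSC levels were found in Klf9, Lrrc59, Naa50, Supt16 and Rab18. Klf9, a zinc finger transcription factor, had 18 A of 50 reads (0.360, Wilson 95% interval 0.241 to 0.499), against 0.707 and 0.695 in siNC and 0.255 and 0.202 in siVirma. Lrrc59, a protein of the endoplasmic reticulum membrane, had 59 of 129 (0.457, 0.374 to 0.543) against 0.744 and 0.765 in siNC. Naa50, an N-terminal acetyltransferase, had 47 of 91 (0.516, 0.415 to 0.616) against 0.778 and 0.757. The intervals of these 3 sites lie under both siNC levels and, for Lrrc59 and Naa50, above both siVirma levels.

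The highest were Slc7a5, Trim27, Septin11, Nucks1 and Dnaja2. Slc7a5 had 69 of 79 reads (0.873, 0.782 to 0.930), with both siNC levels, 0.804 and 0.843, inside the interval. Trim27, an E3 ubiquitin ligase, had 73 of 85 (0.859, 0.769 to 0.917), with 0.810 and 0.793 in siNC also inside. The remaining share in TBLC was 34.0% at Lrrc59 and 34.2% at Slc7a5, with mean siNC levels of 0.754 and 0.824. Both sites were named for a low or high sgCtrl level, so nothing is read from their difference in EPSC.

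The EPSC experiment aimed FTO at Gata6. At the chosen Gata6 site, sgCtrl had 16 A of 23 reads (0.696, 0.491 to 0.844) and sgGata6 4 of 11 (0.364, 0.152 to 0.646), and the site was too shallow for the test. Of the chosen sites, 114 had 20 reads in both EPSC groups. By Fisher's exact test on pooled reads (two-sided, Benjamini-Hochberg over 10185 sites), 0 of 114 were called, where 0.255% of all sites were called lower and 0.0196% higher in sgGata6. At an unadjusted p under 0.05 there were 5 lower and 3 higher (7.02%), where 11.8% of all sites passed that limit. The test compares pooled libraries and not the conditions.

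The lowest of these p-values, chosen for mention after it was seen, was at Wdr3, a factor of ribosome small subunit assembly. It went from 6 A of 22 reads in sgCtrl to 22 of 28 in sgGata6, with a Fisher's exact adjusted p of 0.0865. Its sgCtrl level of 0.273 was the lowest of the 123 sites and the only one not above its mean siVirma level, while the siNC libraries had 0.813 and 0.814. Lrrc59 had 0.457 in sgCtrl and 0.293 in sgGata6 from 129 and 133 reads (Fisher's exact adjusted p 0.204). Over the 114 sites the median of sgGata6 minus sgCtrl was 0.0143, with 53 of them lower in sgGata6.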

How the data were processed

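Purified mRNA went into GLORI libraries for Illumina sequencing, per the labels' protocols. Positions are in mm39, per the submitters' processing notes, and no aligner or site caller was given in the sources used here. Each deposited TBLC list gives counts of A and A+G reads per site and a level as a fraction, per the file headers. The deposited p-values were used only to describe the lists, which hold no site with under 15 A+G reads, under 5 A reads, a level under 0.1 or an adjusted p above 0.0040. Gene coverage (a signal) and conversion rate (a fraction) are the authors' values per gene, with no formula given in the sources used here. The EPSC table holds counts of A reads and the coverage in A+G reads, which the authors pooled per group, so the planned edgeR test was replaced by Fisher's exact test.

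Levels were recomputed as A over A+G reads. Sites were tested with edgeR 4.0.16 (R 4.3.3), quasi-likelihood, on A and G counts with a term per library, over 20414 sites, named or not, at an adjusted p of 0.05. Gene coverage changes and folds are the difference of mean log2 coverage, siVirma minus siNC, less its median over 6787 genes. For the counts of genes whose groups did not overlap, each library's log2 coverage was centred on its median ratio to the gene mean over those genes. Other steps ran in Python 3.11.15 with pandas 2.3.3, scipy 1.17.1 and numpy 2.4.6, and plots in matplotlib 3.10.9. The tests were tried on simulated data. Gene symbols were looked up in name tables of another assembly, which held 623 of the 626 genes; only names were used.

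The members, gene lists and alternatives were chosen with earlier results of these data known. Named sites were the 10 lowest remaining shares (50 reads in each library), genes with several members, 3 sites on each side of the threshold (100 reads), the 5 highest and 5 lowest sgCtrl levels (50 reads), the 4 closest and 4 farthest neighbours (50 reads), the 4 largest coverage changes each way, up to 3 deepest members per list, and members passing the EPSC test; not all are printed, and 1 item is not reported here. Alternatives covered the read minimum, the share threshold, pooled reads, limma 3.58.1, Fisher's exact test, a replicate block, neighbour definition, centring, and leaving out each library.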

Additional observations from a re-analysis of the deposited data

How the results depend on the processing

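The number of chosen sites was 246 with 50 reads in each library, 208 with a share of at most 0.30 and 1488 with at most 0.40. Leaving out the levels of 1 library gave 808 to 864 sites, of which 493 to 526 were among the 672. The library left out still had to list the site with at least 20 A+G reads. With A and A+G reads summed per group the number of chosen sites was 683, with 637 shared. At 50 reads edgeR called all 246 chosen sites lower, and 8504 of all 9010 sites tested. Both limma and Fisher's exact test called all 672 lower, and 18663 and 18597 of all 20414 sites. Fits without 1 library leave 1 library in a group, so their calls are not given. The rule used this contrast, so these counts test nothing. The median distance to the nearest site was 44 nt when sites called in either siNC library counted (34 nt for the rest), 126 nt (85) with sites called in all 4 libraries, 49.5 nt (40) with 50 reads, 52 nt (44) with a share of at most 0.40, and 52 to 55 nt (45) without 1 library. The median coverage change was 0.20 on the log2 scale when not centred, 0.12 for A+G reads at the site, and 0.05 to 0.08 without 1 library. The median EPSC level was 0.649 with 50 EPSC reads, 0.682 in sgGata6, 0.546 (16 sites) with a share of at most 0.30, 0.692 with at most 0.40, and 0.624 to 0.672 without 1 TBLC library. The cause of these shifts was not tested. Of these alternatives, 20 moved the value by more than its spread, or a count by over 1.5 times, and 27 did not. Both numbers include the counts of chosen sites called lower, which the rule fixed, so they do not measure stability. Where the rest of the range was also computed, the median distance of chosen sites stayed above it and the median EPSC level below it. For single sites, leaving out 1 of 2 replicates returns the other one, so a value within the replicate spread shows no stability. Of 62 chosen sites covered by the naming rule, 32 passed above 35% kept when some 1 library was left out, up to 45.2% at Il6st and Gbx2, 44.8% at Plk1 and 41.8% at Gata6, each without siVirma replicate 2.

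Same-numbered siNC and siVirma libraries did not deviate together (correlation 0.00844 over 20414 sites), so the number was not taken to pair them. With the replicate block edgeR called 672 of 672 lower, and 18693 of all 20414 sites. The lists' minimum level of 0.1 and 5 A reads limit how low a chosen site can be seen to go.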
